A study of Homo sapiens with 4 samples.

Results

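The mRNAs that encode the core proteins of the spliceosome were examined in RNA immunoprecipitation sequencing (RIP-seq) of KIAA1429. The members were all gene names that begin with SNRP, or with LSM, SF3A, SF3B, PRPF or U2AF followed by a digit, and 51 of the 13300 gene names in the files met this rule. The rule used names and no measured value. The 4 libraries came from HCCLM3, an established human hepatocellular carcinoma (HCC) cell line, with 2 libraries precipitated with an antibody against KIAA1429 (the KIAA1429-immunoprecipitated group) and 2 with normal IgG (the IgG group), which shows what the beads and a non-specific antibody bring down. Neither group carried a gene edit or a drug according to the labels, and the labels do not say whether the replicates were separate cultures, so p-values measure only the spread between these libraries. The study used the experiment to ask which mRNAs are bound by KIAA1429. No library of the lysate before precipitation was analysed here, so a difference is one between precipitates.

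The spliceosome removes introns from pre-mRNA. Its small nuclear ribonucleoproteins (snRNPs) are built from U-rich small RNAs, a ring of Sm or LSM proteins around each RNA and proteins specific to each particle. The U1 snRNP recognises the 5′ splice site, U2AF and the SF3A and SF3B proteins of the U2 snRNP recognise the 3′ splice site and the branch point, and the tri-snRNP of U4, U6 and U5 brings in PRPF8, which holds the catalytic centre. KIAA1429, also called VIRMA, is the large scaffold of the complex that writes N6-methyladenosine (m6A) on mRNA, mostly around stop codons and in 3′ UTRs, at adenosines that often lie in the motif GGAC.

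Sequences are shown for an alternative exon and for coding ends of some of these mRNAs. All are from the GRCh37 (hg19) assembly and written 5′ to 3′ on the strand of the gene. Whether the values below depend on these stretches was not tested. U2AF1, which reads the AG of the 3′ splice site, has 2 alternative versions of exon 3, each 67 bases long and both coding, and its most abundant listed transcripts differ by this exchange. U2AF1-201 (ENST00000291552) uses the version at chr21:44520563-44520629 and U2AF1-202 (ENST00000380276) the one at chr21:44521476-44521542, both on the minus strand. They share 44 bases position by position, and the 23 that differ are in capitals.
U2AF1-201 exon 3: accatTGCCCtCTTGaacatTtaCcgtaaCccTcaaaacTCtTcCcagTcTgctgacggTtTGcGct
U2AF1-202 exon 3: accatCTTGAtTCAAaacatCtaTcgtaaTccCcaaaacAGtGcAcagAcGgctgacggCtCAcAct

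The end of the coding sequence is the stretch next to the stop codon. The last 60 coding bases, stop codon included, are shown for SNRPE, SF3B5 and SF3B6, which had low unadjusted p-values, and for PRPF8, the longest member, with each GGAC in capitals. The SNRPE stretch is spliced from 2 exons between positions 203834244 and 203839060 of the plus strand of chromosome 1. The others lie in 1 exon each on the minus strand, at chr6:144416374-144416433 for SF3B5, chr2:24290632-24290691 for SF3B6 and chr17:1554096-1554155 for PRPF8.
SNRPE coding end: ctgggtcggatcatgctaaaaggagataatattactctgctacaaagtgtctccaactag
SF3B5 coding end: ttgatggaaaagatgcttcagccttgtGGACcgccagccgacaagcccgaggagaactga
SF3B6 coding end: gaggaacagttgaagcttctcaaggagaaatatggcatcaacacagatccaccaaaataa
PRPF8 coding end: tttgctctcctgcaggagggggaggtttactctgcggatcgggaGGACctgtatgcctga
GGAC was searched on the sense strand alone in 1 coding transcript a gene. It occurred in the last 60 coding bases of 21 of 50 members (42.0%) and of 24.4% of all 10331 genes with such a stretch. Among the 15 members with both KIAA1429 values above both IgG values it occurred in 5, and among the 35 others in 16. Over the whole coding sequence, the median was 4.48 GGAC per kilobase in the members and 4.60 in all genes. LSM2, LSM8 and SNRPE had none at all in their coding sequence. A match is a description of letters and not of a methylated site.

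The values are FPKM, fragment levels scaled to transcript length and to the size of the library, deposited per transcript and summed here per gene name. The summed FPKM of a library was 295573 and 315446 in IgG and 337041 and 340300 in KIAA1429, so both KIAA1429 totals were the higher. The depth in reads is unknown. Of 13 hepatocyte and epithelial tumour markers all were listed, with summed FPKM of 1699 to 2066, most of it the keratin genes KRT8, KRT18 and KRT19. ALB was at 53.5 to 76.3 FPKM and EPCAM at 1.41 to 3.21. Of 12 blood, endothelial and stromal markers 9 were not listed. The other 3 summed to 31.1 to 45.1 FPKM, nearly all of it COL3A1 and ACTA2. Spearman's rho between libraries over 11361 gene totals was 0.849 for the IgG pair, 0.872 for the KIAA1429 pair and 0.833 to 0.885 between groups, so libraries of 1 group were not more alike than libraries of different groups.

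All 51 members had a mean of at least 1 FPKM and were tested. They took up 0.522% and 0.435% of the summed FPKM in the IgG libraries and 0.571% and 0.454% in the KIAA1429 libraries. These shares overlapped between the groups. Their own sum was 1544 and 1371 FPKM in IgG and 1924 and 1546 in KIAA1429, a mean of 1457 ± 122 (SD, n = 2) against 1735 ± 268. The lower KIAA1429 sum and the higher IgG sum were nearly equal. The sums are not scaled to the summed FPKM of the library, which was itself higher in both KIAA1429 libraries than in both IgG libraries. The exact two-sided permutation test gave p = 0.333, the smallest value that 2 against 2 libraries allow. The difference in mean log2 sum was 0.25, and it was 0.33 without IgG replicate 1, 0.16 without IgG replicate 2, 0.09 without KIAA1429 replicate 1 and 0.40 without KIAA1429 replicate 2.

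No member passed the test. In limma's moderated test on log2(FPKM + 1), with Benjamini-Hochberg adjustment over 11361 gene totals, 0% of gene totals were called higher and 0% lower at an adjusted p under 0.05 and a log2 fold change beyond 1. The lowest adjusted p of a member was 0.993. At an unadjusted p under 0.05 there were 4 members higher (SNRPE, SF3B5, SF3B6 and PRPF39) and 0 lower, beside 360 and 162 gene totals in all. PRPF39 reached the level for testing only through its KIAA1429 values, so it had to differ. With a replicate block the 4 became 9, with 0 lower, and the count also moved when 1 library was left out. How many of all gene totals reached this level in those settings was not counted. The 9 can therefore not be set beside a share of all gene totals. The block called 12 gene totals higher and 1 lower, none a member. The limma fit without a variance trend called 0 gene totals, as did the main fit.

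In 15 of the 51 members (29.4%) both KIAA1429 values lay above both IgG values, where 16.6% of all gene totals did so. In 2 members (3.92%) both lay below, where 15.2% of all gene totals did so. The other 34 members overlapped. The 15 include PRPF39 and PRPF40B, which reached the level for testing only through their KIAA1429 values. With a filter at a mean of 5 FPKM, 13 of 45 members were apart and higher, beside 17.2% of all gene totals. The median log2 fold change was 0.25 in the members, with 36 above and 15 below 0, and 0.02 over all gene totals, whose middle values ran from -0.28 to 0.35 between quartiles. With 1 library left out the separation is easier to reach, and the count of 15 became 30 of 51 without IgG replicate 1 (40.2% of all gene totals), 23 without IgG replicate 2 (29.4%), 18 without KIAA1429 replicate 1 (30.5%) and 28 without KIAA1429 replicate 2 (34.1%). The count of 2 members apart and lower became 6 (29.3% of all gene totals), 16 (37.8%), 10 (31.0%) and 5 (29.4%) in the same order. Without KIAA1429 replicate 1 the median of the members was 0.11, and without KIAA1429 replicate 2 it was 0.41.

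**Figure D1:**
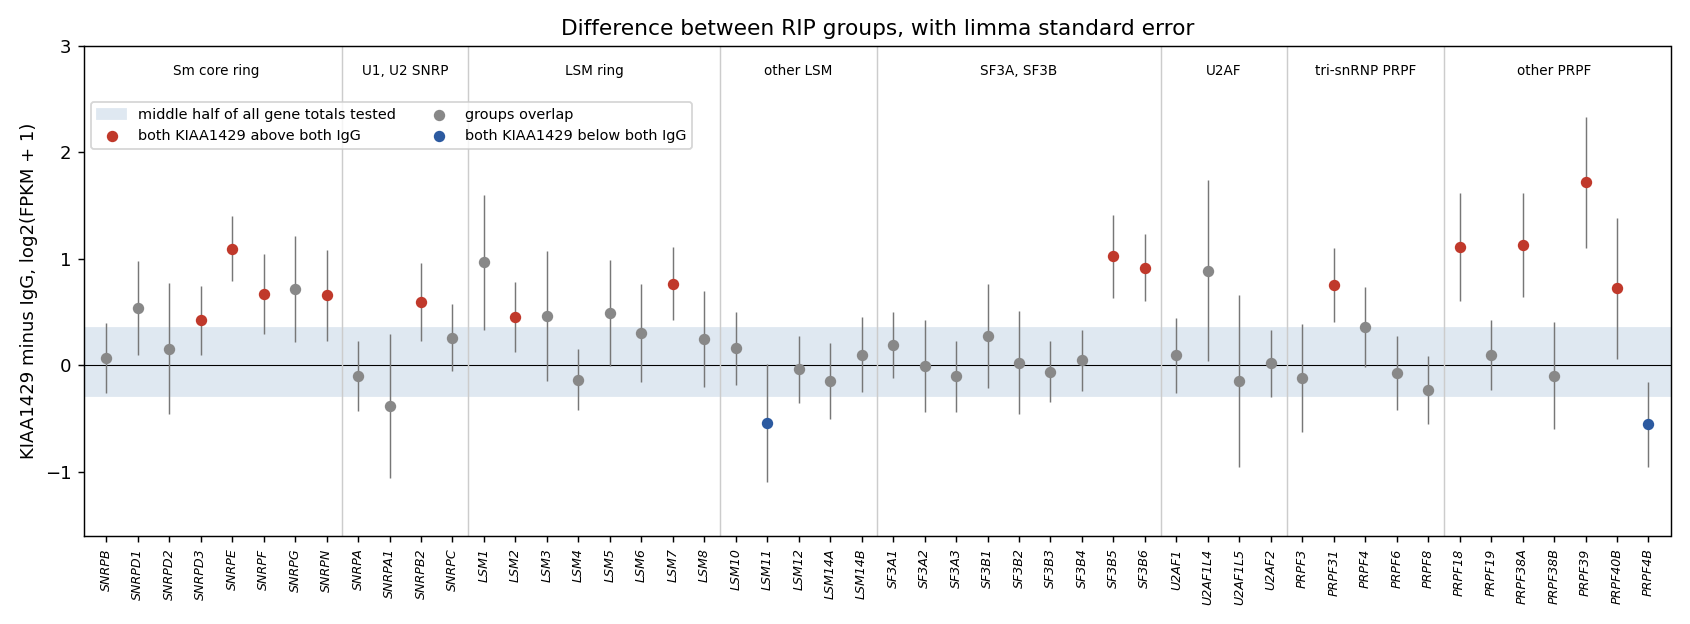
Difference in log2(FPKM + 1) between the KIAA1429-immunoprecipitated and IgG groups for 50 of the 51 members by group (points, with limma's standard error, n = 2 a group), with the range between the quartiles of all gene totals as a band. Most red points, members with both KIAA1429 values above both IgG values, are in the Sm ring and among the other PRPF genes, and none passed the test.

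Coding length moved with these differences. Over all 10568 genes with a coding length, the median log2 fold change was 0.24 for coding sequences under 600 bases, 0.09 from 600 to under 1200, -0.02 from 1200 to under 2400 and -0.12 from 2400 bases. In the members the medians of the same classes were 0.46 (19 members), 0.10 (11), 0.03 (12) and -0.02 (8). Both KIAA1429 values lay above both IgG values in 7 of the 19 members under 600 bases (36.8%), beside 27.9% of all genes of that class. They did so in 4 of 11, 2 of 12 and 2 of 8 members of the longer classes, beside 20.0%, 13.3% and 7.68% of all genes. Without KIAA1429 replicate 1 the medians under 600 bases were 0.19 in the members and 0.17 in all genes, and without KIAA1429 replicate 2 they were 0.74 and 0.32, so the distance between them lay mostly in KIAA1429 replicate 1. The median coding length was 806 bases in the members and 1281 in all genes, and Spearman's rho between coding length and log2 fold change was -0.41 across 50 members and -0.23 across all genes, as a description of genes that share the same 4 libraries. The part of length in the members' values was not tested.

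The Sm proteins B, D1, D2, D3, E, F and G form the ring on the U1, U2, U4 and U5 RNAs, and SNRPN encodes SmN, a close paralog of SmB. All 8 genes had a log2 fold change above 0, from 0.07 to 1.10, although SNRPB turned to -0.026 with quantile normalization. The median was 0.60, and 4 of the 8 (SNRPD3, SNRPE, SNRPF and SNRPN) had both KIAA1429 values above both IgG values. The share that did so was 16.6% of all gene totals and 27.9% of all genes with a coding sequence under 600 bases. SNRPE (chr1:203830731-203839678), which encodes SmE, was at 41.2 and 28.9 FPKM in IgG and at 79.2 and 71.0 in KIAA1429. Its groups did not overlap, 2.14-fold on the means of 35.1 ± 8.68 and 75.1 ± 5.82 (SD, n = 2). The log2 fold change was 1.10 (SE 0.31), with an unadjusted limma p of 0.00927 and an adjusted p of 0.993. This was the lowest p of any member.

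SNRPF, which encodes SmF, was at 39.4 and 28.7 FPKM in IgG and at 73.2 and 39.9 in KIAA1429. Only KIAA1429 replicate 1 was far above IgG, and replicate 2 lay close to the higher IgG value. SNRPD3 had the same form, with 32.4 and 30.9 against 52.9 and 34.5. SNRPD2, the most abundant member of the ring with SNRPB, was at 55.9 and 80.8 in IgG and at 150 and 37.2 in KIAA1429, so its KIAA1429 libraries held both the highest and the lowest value. Its log2 fold change of 0.16 (SE 0.62) became -0.84 without KIAA1429 replicate 1. SNRPG was at 21.9 and 54.5 against 79.0 and 42.1, and SNRPB at 83.8 and 76.6 against 106 and 66.5, both overlapping.

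The sum over the 8 Sm genes was 290 and 313 FPKM in IgG and 562 and 315 in KIAA1429, so nearly all of the difference lay in KIAA1429 replicate 1. SNRPE did not follow this form, with both KIAA1429 libraries well above IgG. SNRPN (chr15:25200074-25223870) was at 6.16 and 7.48 FPKM in IgG and at 8.47 and 15.0 in KIAA1429, with the higher value in replicate 2. It is a paralog of SNRPB and shares its locus with SNURF, and whether reads were given to the right gene was not tested, so its value is uncertain. With the most abundant transcript in place of the sum, the log2 fold change of SNRPN was 0.013 in place of 0.66.

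**Figure D2:**
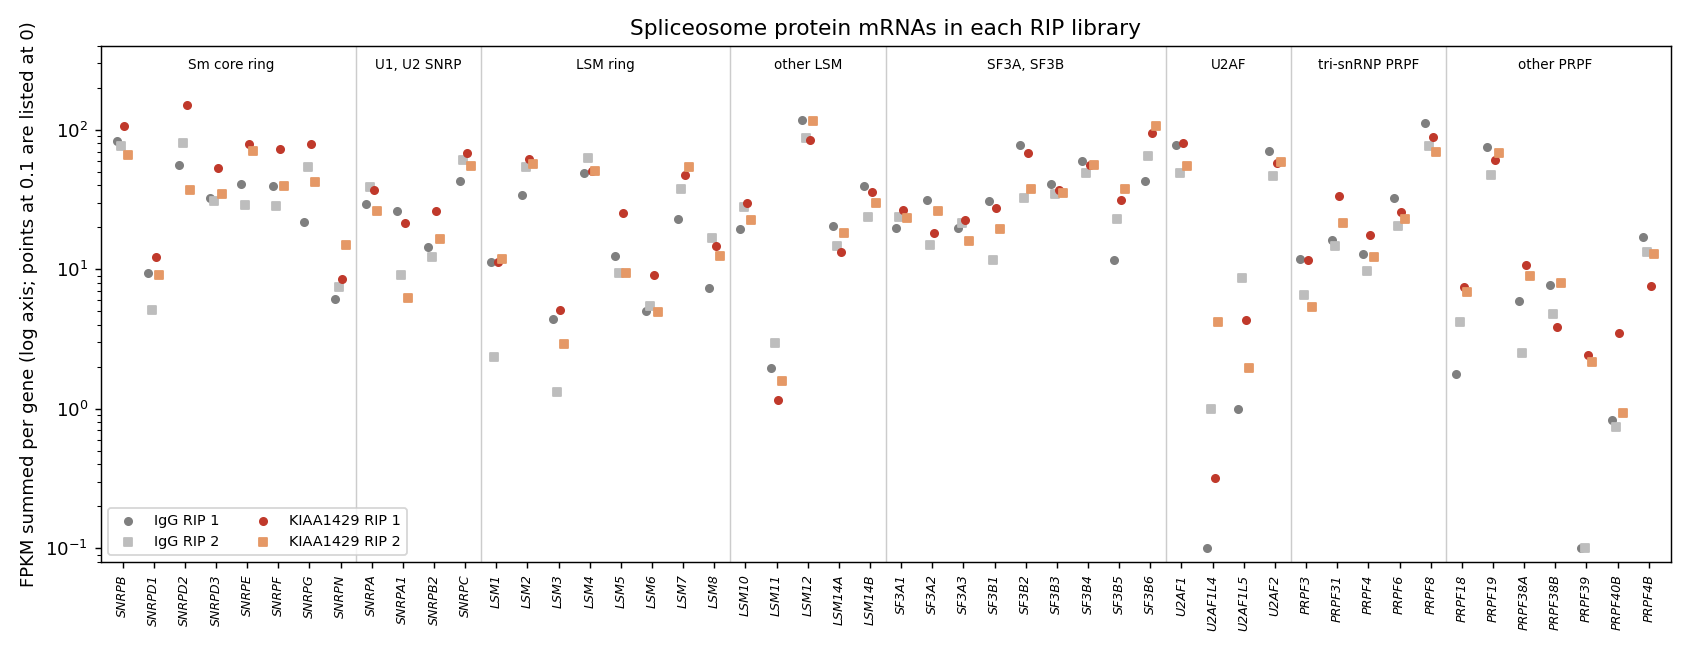
FPKM summed per gene (log axis) of 50 of the 51 members in each of the 4 libraries, ordered by group, with IgG in grey, KIAA1429 in red and orange, and points at the bottom for genes listed at 0. SNRPE, SF3B5 and SF3B6 show both KIAA1429 points above both IgG points, whereas SNRPD2 shows the KIAA1429 points on either side of IgG.

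Of the proteins specific to U1 and U2, SNRPA and SNRPC belong to U1, and SNRPA1 and SNRPB2 to U2. Only SNRPB2 had groups that did not overlap, at 14.6 and 12.3 FPKM in IgG and 26.1 and 16.4 in KIAA1429, 1.59-fold on the means. Its log2 fold change was 0.60 (SE 0.37) with an unadjusted limma p of 0.146. SNRPC was at 42.8 and 60.6 against 68.2 and 54.8, and SNRPA at 29.3 and 38.8 against 37.1 and 26.4. SNRPA1 differed more within the groups than between them, at 26.3 and 9.08 against 21.6 and 6.20.

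LSM1 to LSM8 make up rings that share LSM2 to LSM7. With LSM8 the ring binds the U6 RNA in the nucleus, and with LSM1 it takes part in mRNA decay in the cytoplasm. Of these 8 genes 2 had groups that did not overlap, both higher in KIAA1429. The share that did so was 16.6% of all gene totals and 27.9% of all genes with a coding sequence under 600 bases. The coding sequences of LSM1 to LSM8 are 240 to 417 bases long. A log2 fold change above 0 was seen in 7, with a median of 0.46 over the 8. The median was 0.14 without KIAA1429 replicate 1 and 0.68 without KIAA1429 replicate 2. LSM7 was at 22.8 and 37.8 FPKM in IgG and at 47.3 and 54.4 in KIAA1429, 1.68-fold on the means, with a log2 fold change of 0.77 (SE 0.34) and an unadjusted limma p of 0.0601. LSM2 was at 34.0 and 54.4 against 61.8 and 57.04, so its higher IgG value lay close to both KIAA1429 values. Its protein-coding transcript overlapped, at 34.0 and 49.7 against 47.8 and 43.8, with a log2 fold change of 0.15 in place of 0.46, so the separation came from processed transcripts. LSM4, the other abundant gene of these rings, was at 49.5 and 63.4 against 50.8 and 51.0, and its log2 fold change was -0.14 (SE 0.29). LSM1 and LSM8, the genes that tell the rings apart, overlapped between groups, with log2 fold changes of 0.97 (SE 0.63) and 0.25 (SE 0.45), and the lowest value of LSM1, 2.35 FPKM, was in IgG replicate 2 while its other 3 values were 11.3 to 11.8.

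The other LSM-domain genes are not parts of the major spliceosome. LSM10 and LSM11 belong to the U7 snRNP, which processes histone mRNA ends, and LSM14A and LSM14B bind mRNA in the cytoplasm. Their median log2 fold change was -0.04 and none was apart and higher. LSM12 was among the most abundant members, at 119 and 87.8 FPKM in IgG and 85.0 and 116 in KIAA1429, and LSM14B was at 39.8 and 23.6 against 36.0 and 30.1. LSM11 was 1 of the 2 members with both KIAA1429 values below both IgG values, at 1.95 and 2.98 against 1.16 and 1.58, all near the lower limit of 1 FPKM for testing.

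SF3A and SF3B are the parts of the U2 snRNP that hold the branch point. Their 9 genes were not alike. SF3B5 and SF3B6, whose coding sequences were the shortest of these 9, had both KIAA1429 values above both IgG values, and the other 7 overlapped, with log2 fold changes from -0.10 to 0.27. SF3B6 (chr2:24290454-24299313), whose protein touches the branch-point adenosine, was at 42.9 and 65.2 FPKM in IgG and at 95.7 and 107 in KIAA1429. The means were 54.1 ± 15.8 and 101.1 ± 7.66 (SD, n = 2), 1.87-fold, with a log2 fold change of 0.92 (SE 0.32), an unadjusted limma p of 0.0230 and an adjusted p of 0.997. SF3B5 (chr6:144416018-144416710) was at 11.6 and 22.9 against 31.5 and 37.5, on means of 17.3 ± 7.99 and 34.5 ± 4.22 (SD, n = 2), with a log2 fold change of 1.02 (SE 0.39) and an unadjusted limma p of 0.0352. Each of these genes had 1 listed transcript, so no split between listed transcripts of the gene enters their values. The rule for listing transcripts is unknown, so reads given to unlisted transcripts cannot be seen. Their coding sequences are 258 bases (SF3B5) and 375 bases (SF3B6).

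SF3B1, the large scaffold of SF3B with a coding sequence of 3912 bases, was at 30.9 and 11.6 FPKM in IgG and at 27.7 and 19.6 in KIAA1429. The IgG values enclosed both KIAA1429 values, and the log2 fold change was 0.27 (SE 0.49). It was -0.39 without IgG replicate 2. SF3B4 was at 59.8 and 49.1 against 55.6 and 56.4, 1.03-fold, and SF3B2 and SF3B3 were 0.970-fold and 0.955-fold on the means.

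The U2AF genes did not separate. U2AF2, which binds the polypyrimidine tract, was at 70.3 and 46.6 FPKM in IgG and 57.5 and 58.5 in KIAA1429. U2AF1 was at 78.3 and 49.5 against 80.2 and 55.4, with a log2 fold change of 0.10 (SE 0.35). U2AF1L5 is listed at the same place as U2AF1 on chromosome 21, so the 51 names stand for 50 loci. Reads of the pair cannot be told apart, so the values of U2AF1 and the 0.998 to 8.66 FPKM of U2AF1L5 are uncertain. U2AF1L4, a paralog of U2AF1, was listed at 0 in IgG replicate 1 and was at most 4.21 FPKM.

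In the tri-snRNP, PRPF8, PRPF6, PRPF31, PRPF3 and PRPF4 were measured. PRPF8 (chr17:1553923-1588176) was the second most abundant member by mean level, at 112 and 77.2 FPKM in IgG and at 89.1 and 69.6 in KIAA1429, 0.840-fold on the means of 94.5 ± 24.5 and 79.4 ± 13.8 (SD, n = 2). Its groups overlapped and its log2 fold change was -0.23 (SE 0.32). PRPF6, which bridges U5 and U4/U6, was at 32.6 and 20.3 against 25.9 and 23.0. PRPF31, which stabilises U4/U6, was the exception of this group, at 16.3 and 14.8 FPKM in IgG and 33.6 and 21.5 in KIAA1429. This was 1.77-fold on the means, with a log2 fold change of 0.76 (SE 0.35) and an unadjusted limma p of 0.0673, and it rested on 1 transcript, as described below.

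The remaining PRPF genes act at several steps. Of these 8, both KIAA1429 values were higher in 5 and lower in 1, beside 16.6% and 15.2% of all gene totals. The 5 include PRPF39 and PRPF40B, which reached the level for testing only through their KIAA1429 values. By far the most abundant of the 8 was PRPF19. PRPF19, a ubiquitin ligase of the complex named after it, was at 75.6 and 47.4 FPKM in IgG and 60.5 and 68.4 in KIAA1429. PRPF18, a factor of the second catalytic step, was at 1.77 and 4.17 against 7.42 and 6.93, with a log2 fold change of 1.11 (SE 0.50). PRPF38A, a tri-snRNP-associated factor needed for activation, was at 5.94 and 2.53 against 10.8 and 8.93, with a log2 fold change of 1.13 (SE 0.49). Its protein-coding transcript alone overlapped between groups, with a log2 fold change of -0.12, so the separation came from its 2 processed transcripts.

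PRPF39, a U1-associated factor, was listed at 0 in both IgG libraries and at 2.44 and 2.16 FPKM in KIAA1429. No fold is given because the read count behind a listed 0 is unknown. It reached the mean of 1 FPKM needed for testing only through the KIAA1429 libraries, so no p is given. PRPF40B was at 0.826 and 0.746 against 3.52 and 0.930, and it too reached that mean only through its KIAA1429 values. PRPF4B, a kinase of the tri-snRNP, was the other member with both KIAA1429 values below both IgG values, at 17.2 and 13.3 against 7.63 and 12.99, and its higher KIAA1429 value and lower IgG value were nearly equal.

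The files list 146 transcripts of the 51 members, 116 protein-coding and 30 processed transcripts. None of the 108 with a mean of at least 1 FPKM was called by limma. At an unadjusted limma p under 0.05 there were 4 higher and 2 lower, beside 708 and 545 of all 23375 transcripts. Of the 4, PRPF31-204 and LSM2-213 were listed at 0 in both IgG libraries and so had to differ. The 2 lower (SF3B2-214 and SF3A3-202) reached the level for testing only through their IgG values. SF3B2-214 was listed at 0 in both KIAA1429 libraries and so also had to differ. Both KIAA1429 values lay above both IgG values in 22 of the 108 and below in 13, beside 15.2% and 14.5% of all 23375 transcripts tested. Of the 146, 9 were listed at 0 in both IgG libraries and above 0 in both KIAA1429 libraries, and 6 the other way round, which is 6.16% and 4.11% beside 3.20% and 2.96% of all 34975 transcripts.

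PRPF31-204 (ENST00000445124) was listed at 0 in both IgG libraries and at 14.3 and 15.4 FPKM in KIAA1429. It was tested only through its KIAA1429 values, so no p is given. It is an 886-base model of 8 exons, and 856 of its bases also belong to the 1833-base, 14-exon PRPF31-201. PRPF31-201 was at 15.2 and 14.8 in IgG and at 18.9 and 1.94 in KIAA1429. In KIAA1429 replicate 2 most of the gene's FPKM was therefore listed under the short model, which holds few bases of its own. With the most abundant transcript in place of the sum, the log2 fold change of PRPF31 was -1.06.

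U2AF1-201 and U2AF1-202, the transcripts with the exon 3 versions printed above, were described after their values were seen. U2AF1-201 was at 67.7 and 13.5 FPKM in IgG and at 57.2 and 35.3 in KIAA1429. U2AF1-202 was at 9.56 and 30.5 against 21.8 and 19.3. The order of the 2 versions turned between the IgG replicates, with U2AF1-201 the higher in IgG replicate 1 and U2AF1-202 in IgG replicate 2, and the KIAA1429 libraries, with U2AF1-201 the higher in both, lay between them in ratio. The spread within IgG was wider than the difference between the group means. U2AF1L5-201, listed at the same locus, was at 0.572 and 6.42 FPKM in IgG and at 1.24 and 0.795 in KIAA1429. Reads of U2AF1 and U2AF1L5 cannot be told apart, so the values of these transcripts are uncertain.

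SNRPB2-202 was at 3.65 and 1.12 FPKM in IgG and at 12.3 and 6.56 in KIAA1429, with a log2 fold change of 1.67 (SE 0.64) and an adjusted limma p of 0.879. SNRPB2-203, a processed transcript, went the other way, at 5.63 and 2.98 against 1.82 and 1.78. SF3A3, whose gene total overlapped, had SF3A3-201 at 13.6 and 9.17 against 21.1 and 13.9 and the processed SF3A3-202 at 4.59 and 3.28 against 0.64 and 0.14. PRPF4B-201, the protein-coding transcript of PRPF4B, was at 14.5, 10.2 and 10.8 FPKM in 3 libraries and listed at 0 in KIAA1429 replicate 1. In SNRPE the protein-coding SNRPE-202 carried the difference, at 36.7 and 20.9 against 64.8 and 50.7, with SNRPE-205 at 0 and 6.82 against 9.81 and 12.3.

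Genes of the spliceosome outside the naming rule were counted from a list of 60 other snRNP and spliceosome proteins, 57 of them listed and tested. None was called, none had an unadjusted limma p under 0.05, and both KIAA1429 values were above both IgG values in 17 (29.8%) and below in 3 (5.26%), with a median log2 fold change of 0.22. Of 15 genes that assemble Sm rings, such as the SMN and GEMIN genes, 6 were apart and higher and 1 lower, 0 were called, and the median was 0.15. The 6 include the paralogs SMN1 and SMN2, each counted as a gene. They also include GEMIN2, listed at 0 in both IgG libraries and at 0.831 and 6.71 FPKM in KIAA1429. GEMIN2 reached the level for testing only through its KIAA1429 values, so it had to differ. The shares of the members, 29.4% and 3.92%, were close to those of the 57 other spliceosome genes. Over all gene totals the shares were 16.6% and 15.2%. Whether either list differs from other genes was not tested.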

How the data were processed

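RIP-seq was measured in 4 libraries of HCCLM3 cells, 2 with anti-KIAA1429 and 2 with normal IgG. According to the study's methods, RNA was poly(A)-selected, fragmented, sequenced on an Illumina HiSeq and aligned to GRCh37/hg19 with HISAT2, while the submitters' processing notes name Bowtie2 2.1.0. The authors deposited FPKM per transcript. The tool that made the FPKM, its annotation and the rule for listing transcripts are not given in the sources used here. FPKM is relative to transcript length and library total, and reads of overlapping transcripts can be split differently in each library.

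The members and gene lists were chosen with earlier results of these data known. FPKM was summed per gene name and tested as log2(FPKM + 1) with limma 3.58.1 (R 4.3.3, eBayes with trend, two-sided, Benjamini-Hochberg), after removing features whose mean was below 1 FPKM, which left 11361 of 13300 gene totals and 23375 of 34975 transcripts. Calls needed an adjusted p under 0.05 and a log2 fold change beyond 1. The study used DESeq on counts, which were not analysed here. No counting intervals could be given, as depth is unknown. Unless called a fold on the means of FPKM, a difference is the limma log2 fold change of KIAA1429 over IgG. Members named with values were the 2 most abundant of each group, those apart between groups with a log2 ratio of means beyond 0.5 (at most 12 in each direction), and SF3B1, PRPF8, U2AF1, U2AF2 and SNRPN. Of the members, 1 is counted but not reported here by name, and is not drawn in the plots. Transcripts were named for the 4 members of at least 10 FPKM with the largest relative transcript shifts. Other members named, among them SNRPD3, SNRPG, SNRPA1, LSM1, LSM8 and PRPF38A's and SNRPE's transcripts, were chosen after their values were seen. Coding lengths and sequences came from GENCODE 44 lifted to GRCh37, for the most abundant listed coding transcript, in 50 of 51 members. The scripts were tested on simulated data. Alternatives were other pseudocounts, filters, scalings, transcript summaries, a replicate block and leaving out each library, which was added for the medians of member groups and length classes after seeing the data.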

Additional observations from a re-analysis of the deposited data

How the results depend on the processing

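With the replicate number as a block, 12 gene totals were called higher and 1 lower, none a member (lowest adjusted limma p of a member 0.152, for SNRPE), and 0 member transcripts. The numbers are not stated to pair libraries, and same-numbered libraries deviated together with r = 0.19 over all gene totals. In every other setting run, 0 gene totals and 0 member transcripts were called. The count of members apart and lower, 2, was 1 with a filter at 5 FPKM, with protein-coding transcripts only and with the most abundant transcript, and 3 with median scaling and with quantile normalization, while the count apart and higher was 13 to 17 over all settings with 4 libraries. The median log2 fold change of the members was 0.17 to 0.26 over those settings. Of 30 named members, 15 kept their direction in every setting in which they were tested. Quantile normalization turned SF3B4 (-0.034), SNRPB (-0.026) and U2AF2 (-0.067). Protein-coding transcripts only turned PRPF38A (-0.12), and the most abundant transcript turned PRPF38A (-0.12), PRPF19 (-0.017), PRPF31 (-1.06), SNRPB (-0.17) and U2AF2 (-0.081). The cause was not tested.

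Leaving out 1 library at a time, the median of the members ran from 0.11 to 0.41, the count apart and higher from 18 to 30 and the count apart and lower from 5 to 16, since 1 library a group is easier to separate. The log2 fold change ran from -0.26 to 0.19 for LSM12, -0.26 to 0.46 for LSM14B, -0.31 to 0.040 for LSM4, -0.23 to 0.43 for PRPF19, -0.40 to 0.25 for PRPF6, -0.50 to 0.029 for PRPF8, -0.39 to 0.94 for SF3B1, -0.094 to 0.19 for SF3B4, -0.34 to 0.14 for SNRPA, -0.27 to 0.40 for SNRPB, -0.84 to 1.15 for SNRPD2, -0.23 to 0.42 for U2AF1 and -0.27 to 0.31 for U2AF2. A lone library was assumed to vary like the other group. The range was 0.85 to 1.34 for SNRPE, 0.62 to 1.22 for SF3B6, 0.56 to 1.49 for SF3B5, 0.41 to 1.12 for LSM7, 0.28 to 0.92 for SNRPB2, 0.45 to 1.07 for PRPF31, 0.66 to 1.56 for PRPF18 and 0.64 to 1.62 for PRPF38A. With 2 libraries a group and no read depth, no member's difference could be told from the spread between replicates in the tests run.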
